A study of Rattus norvegicus with 2 samples.

Results

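A set of regulators of the passage from cortical progenitor to neuron were followed in cortical neurons from rat embryos of day E18. The 9 genes were taken by symbol from a table of 21224 gene rows: Emx2, Pax6, Fabp7, Neurog2, Neurog1, Eomes, Neurod1, Neurod2 and Neurod6. Each of these 9 symbols stood on 1 row. The cells had received a small interfering RNA against Ythdf3 (siYthdf3), which encodes a reader of the m6A mark on messenger RNA, or a negative control small interfering RNA (siNC). With 1 library per condition, nothing below has a replicate check, and p-values are absent. The labels name no hypoxic sample, and give neither the number of cultures or embryos behind a library nor the time after transfection.

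In the embryonic dorsal forebrain, radial glial cells divide at the ventricle and give rise to neurons directly or through intermediate progenitors. Work in mice has described a sequence in which Pax6 activates the proneural gene Neurog2, Neurog2 activates Eomes and Neurod1, and Neurod2 and Neurod6 mark postmitotic glutamatergic neurons. The neurogenins and Neurod proteins are basic helix-loop-helix (bHLH) factors, which pair with E proteins and bind the E-box CANNTG. Pax6 and Emx2 are homeodomain factors that pattern the cortical field, Eomes (also called Tbr2) is a T-box factor of intermediate progenitors, and Fabp7 is a fatty acid binding protein abundant in radial glia. Pax6, Emx2 and Fabp7 are also made by astrocytes, which arise from radial glia.

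The middle of this sequence was lower in siYthdf3 and its neuronal end was not. Eomes and Neurog2 were at least 2-fold lower. Pax6 and Fabp7 were lower by less, while Emx2, Neurod1, Neurod2 and Neurod6 were slightly higher. Neurog1 was close to undetected in either library. Levels are in FPKM, reads scaled by gene length and by the assigned reads of the library, which allows comparison between genes. Ratios are siYthdf3 over siNC with exact 95% intervals, which cover counting error only. The log2 ratio is taken after adding 0.5 FPKM, so the differences of low genes are understated.

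The promoters of the 2 members with the lowest log2 ratios, Eomes and Neurog2, and of the 2 with the highest, Neurod2 and Neurod6, are shown because these genes stand at opposite ends of the comparison. They come from RefSeq on the GRCr8 assembly and run 5′ to 3′ on the gene's strand over the 250 bases before its start. Capitals mark every E-box, CANNTG, which reads the same on either strand. The Eomes stretch is chr8:127058965-127059214 (plus strand), that of Neurog2 chr2:218766955-218767204 (plus), that of Neurod2 chr10:83824278-83824527 (minus) and that of Neurod6 chr4:86180156-86180405 (minus).
Eomes: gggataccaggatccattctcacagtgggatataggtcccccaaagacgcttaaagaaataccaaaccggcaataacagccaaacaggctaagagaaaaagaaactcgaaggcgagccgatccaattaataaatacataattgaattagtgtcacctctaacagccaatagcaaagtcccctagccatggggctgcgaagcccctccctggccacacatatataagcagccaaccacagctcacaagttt
Neurog2: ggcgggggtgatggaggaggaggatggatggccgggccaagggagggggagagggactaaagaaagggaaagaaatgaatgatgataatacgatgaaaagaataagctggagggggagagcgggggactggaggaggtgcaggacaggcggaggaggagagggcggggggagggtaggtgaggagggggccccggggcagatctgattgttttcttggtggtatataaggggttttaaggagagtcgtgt
Neurod2: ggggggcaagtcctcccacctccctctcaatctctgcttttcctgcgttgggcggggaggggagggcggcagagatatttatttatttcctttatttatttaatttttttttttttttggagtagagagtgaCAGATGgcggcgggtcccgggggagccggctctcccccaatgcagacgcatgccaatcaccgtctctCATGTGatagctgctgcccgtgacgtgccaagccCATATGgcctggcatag
Neurod6: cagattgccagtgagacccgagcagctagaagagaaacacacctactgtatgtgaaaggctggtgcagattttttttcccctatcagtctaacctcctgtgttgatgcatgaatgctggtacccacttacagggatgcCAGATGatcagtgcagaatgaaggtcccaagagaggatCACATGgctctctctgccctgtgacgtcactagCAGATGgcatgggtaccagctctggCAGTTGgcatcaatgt

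The Neurod6 stretch held 4 E-boxes and the Neurod2 stretch 3, whereas those of Eomes and Neurog2 held 0. Of the 33469 rat promoter stretches of the same length in the table, 65.5% held at least 1 E-box. The variant CAGATG, searched on both strands and contained in CANNTG, occurred in 14.0% of all stretches. It was found 2 times before Neurod6 and 1 time before Neurod2. Of the 8 members matched by symbol in the promoter table, 4 held an E-box. The other two were Fabp7 and Neurod1, with 1 CAACTG each, and Pax6 and Neurog1 had 0. Emx2 was not matched. The short sequence CCAAT, on either strand a site of general promoter factors, occurred 3 times before Fabp7, 2 times before Eomes and before Neurod2 and 1 time before Neurog1, against 34.0% of all stretches with at least 1. TATAAA, on either strand, was not in any of these 8 stretches and was in 12.9% of all. These matches are letters in a window, and no binding was measured.

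Reads assigned to genes numbered 22586543 in siYthdf3 and 15392218 in siNC. Ythdf3 itself was at 6.93 FPKM in siYthdf3, against 9.38 FPKM in siNC, for a ratio of 0.739 (interval 0.675 to 0.809). Neuronal identity was clear in both libraries. The 7 pan-neuronal markers summed to 1047 FPKM in siYthdf3, against 919 FPKM in siNC. Other cells were present as well, since the 6 astrocyte markers summed to 176 FPKM in siYthdf3 and 109 FPKM in siNC, the 7 radial glia markers to 576 FPKM in siYthdf3 and 986 FPKM in siNC, and the 5 markers of dividing cells to 129 FPKM in siYthdf3 and 249 FPKM in siNC. Without Gfap the other 5 astrocyte markers summed to 35.2 FPKM in siYthdf3 and 40.4 FPKM in siNC, and without Vim and Nes the other 5 radial glia markers summed to 159.6 FPKM in siYthdf3 and 168 FPKM in siNC. The 5 endothelial markers were each under 1 FPKM in both libraries. In bulk RNA, fewer cells of a type and less RNA per cell cannot be told apart.

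Of the 9 genes, 8 had a mean of at least 1 FPKM over the libraries, as did 13172 of all rows. At least 2-fold lower in siYthdf3 were 2 of these 8, Eomes and Neurog2, and across all 13172 genes the share was 0.896%. Eomes is among the 8 only through its siNC level, since its siYthdf3 level was below 1 FPKM. None of the 8 was at least 2-fold higher, where the share over all genes was 0.706%. The counts at 1.5-fold were the same, 2 lower and 0 higher, against 3.95% and 2.41% of all genes. Counting intervals lay below 1 for 4 of the 8 (Eomes, Neurog2, Fabp7 and Pax6) and above 1 for the other 4. Intervals on a side of 1 are common at this depth, at 22.2% of all genes below and 20% above. The median log2 ratio of the 8 was -0.11 and that of all genes was -0.01, with quartiles of -0.17 and 0.14. The median of the members was 0.072 at a mean of at least 5 FPKM, a filter that leaves out Eomes, so no direction is given for it.

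**Figure D1:**
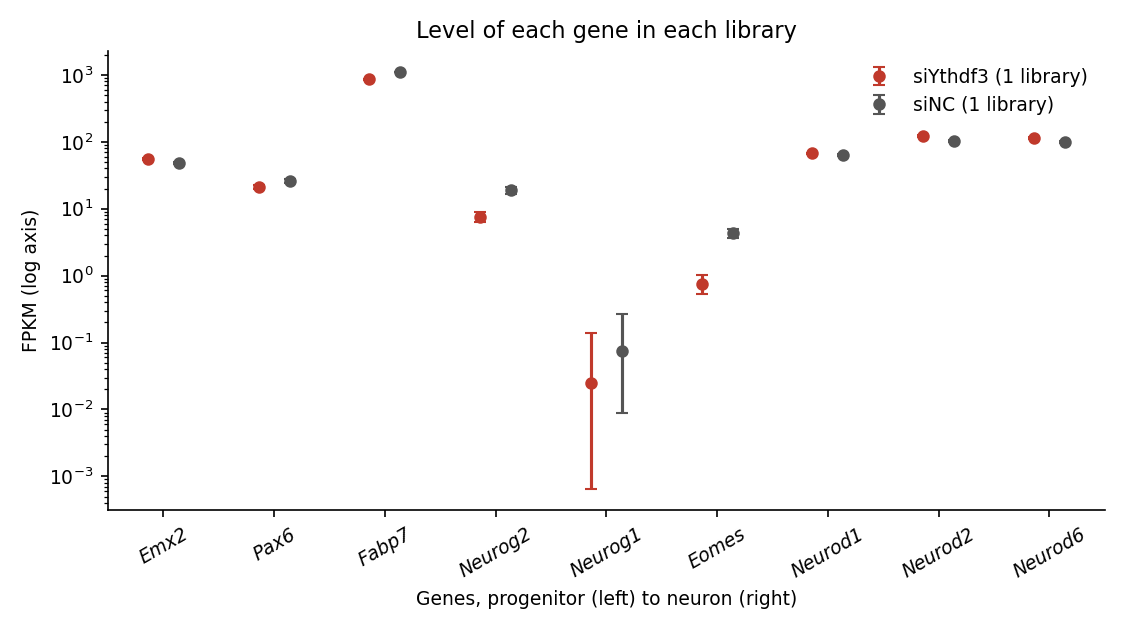
Level of each of the 9 genes in FPKM on a log axis, ordered from progenitor (left) to neuron (right), with siYthdf3 left of siNC. Points are single libraries and bars are exact 95% Poisson intervals of the reads. Bars overlap for Neurog1 and Neurod1 and are apart for every other gene. Those apart include Eomes, 0.743 FPKM in siYthdf3, against 4.34 FPKM in siNC. They also include Neurog2, 7.60 FPKM in siYthdf3, against 18.8 FPKM in siNC.

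At the progenitor end, the 3 genes did not share a direction. Emx2 (ENSRNOG00000009482, chromosome 1, 258626584 to 258633594, plus strand; build of the deposited table not given in the sources used here) was at 55.8 FPKM in siYthdf3, against 48.5 FPKM in siNC. It was higher in siYthdf3, with a ratio of 1.15 (interval 1.09 to 1.21), a log2 ratio of 0.20. Pax6 (ENSRNOG00000004410, chromosome 3, 92135637 to 92157014, plus strand), which sets the balance between progenitor renewal and neurogenesis, was at 21.1 FPKM in siYthdf3, against 26.0 FPKM in siNC. Its ratio was 0.810 (interval 0.746 to 0.880), from 1246 reads in siYthdf3 and 1048 in siNC. The FPKM ratio of Emx2 to Pax6 within a library was 2.65 in siYthdf3 and 1.86 in siNC, so the ratios of these homeodomain genes differed by a factor of 1.42 (interval 1.29 to 1.57).

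Fabp7 (ENSRNOG00000000814, chromosome 20, 37123193 to 37126880, plus strand) was the most abundant of the 9 by far. It was at 862 FPKM in siYthdf3, rank 32 of all rows, and at 1105 FPKM in siNC, rank 20. Its ratio came to 0.780 (interval 0.765 to 0.795), from 23198 reads in siYthdf3 and 20266 in siNC, and the log2 ratio was -0.36. Counted among the measured genes, 81 had at least as many reads as Fabp7, itself included, and 0 of them had a lower log2 ratio. Against Pax6, the Fabp7 level was 40.9-fold in siYthdf3 and 42.5-fold in siNC, and the quotient of 0.963 had an interval that includes 1 (0.884 to 1.05). Against Vim, an intermediate filament gene of radial glia and other immature cells, it was 2.42-fold in siYthdf3 and 1.56-fold in siNC. Fabp7 was therefore less reduced than Vim, by a quotient of 1.55 (interval 1.504 to 1.593).

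Neurog2, which commits dorsal progenitors to the glutamatergic lineage, was much lower. Neurog2 (ENSRNOG00000010972, chromosome 2, 216093363 to 216094154, plus strand) was at 7.60 FPKM in siYthdf3, from 136 reads, and 18.8 FPKM in siNC, from 229 reads. The siYthdf3 level was thus 0.405 of the siNC level (interval 0.325 to 0.503), and its log2 ratio -1.25. Of 9422 genes with at least as many reads over both libraries, 12 had a lower log2 ratio. The gene's row spans 792 bases in the deposited table, with no intron, so its FPKM rests on a short model. The Poisson intervals of the levels, 6.38 to 8.99 FPKM in siYthdf3 and 16.4 to 21.4 FPKM in siNC, do not overlap.

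Neurog1, the paralogue of Neurog2 that acts with it in the early cortex and in sensory ganglia, gave almost no reads. The row (ENSRNOG00000022405, chromosome 17, 8362821 to 8364571, plus strand) held 1 read in siYthdf3 (0.025 FPKM) and 2 reads in siNC (0.074 FPKM). A count of 0 would still allow 3 reads, which is 0.0759 FPKM in siYthdf3, against 0.111 FPKM in siNC for its length. Both values lie under that limit, no ratio is given, and a difference was not detectable at this depth.

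Eomes had the lowest ratio of the 9. Eomes (ENSRNOG00000042140, chromosome 8, 118181777 to 118188316, plus strand) was at 0.743 FPKM in siYthdf3, from 40 reads, and 4.34 FPKM in siNC, from 159 reads. The siYthdf3 level was 0.171 of the siNC level (interval 0.118 to 0.244), and the log2 ratio with the pseudocount was -1.96. It ranked number 12 from the bottom of the 13172 genes, and of the 10956 genes with at least as many reads only 3 had a lower log2 ratio. Eomes passed the filter of 1 FPKM through its siNC level, since its siYthdf3 level was below it. Its ratio was lower than that of Neurog2, next in the order, by a quotient of 0.424 (interval 0.275 to 0.646).

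The 3 Neurod genes were abundant and slightly higher in siYthdf3. Neurod1 (ENSRNOG00000005609, chromosome 3, 64359395 to 64363649, minus strand), expressed as cells leave the cycle, was at 67.1 FPKM in siYthdf3, against 63.8 FPKM in siNC. Its ratio of 1.05 had an interval of 1.002 to 1.10, just above 1. Neurod2 (ENSRNOG00000028417, chromosome 10, 83324442 to 83327986, minus strand), a factor of postmitotic and synaptically maturing neurons, was at 122 FPKM in siYthdf3, against 102 FPKM in siNC. Its ratio came to 1.19 (interval 1.14 to 1.23) and the log2 ratio 0.25, the highest of the 8. Neurod6 (ENSRNOG00000026055, chromosome 4, 84846231 to 84849999, minus strand), which is found in postmitotic projection neurons, was at 114 FPKM in siYthdf3, against 98.8 FPKM in siNC, for a ratio of 1.15 (interval 1.11 to 1.20). These differences were within the range of many genes, since 1828 of the 13172 had a log2 ratio at least as high as that of Neurod2.

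**Figure D2:**
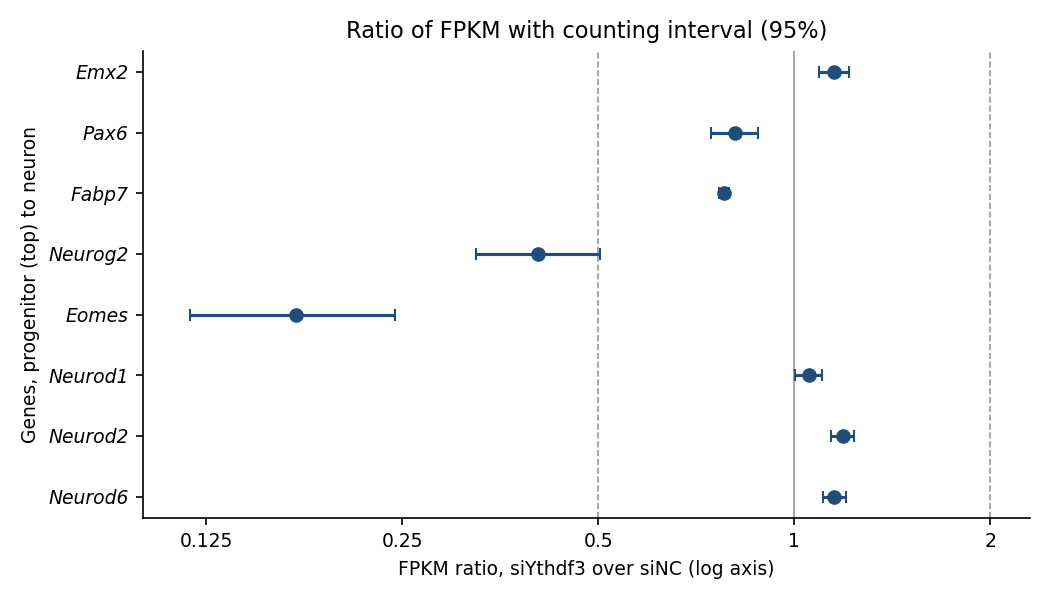
FPKM ratio, siYthdf3 over siNC, on a log axis for the 8 genes that average 1 FPKM or more, from progenitor (top) to neuron (bottom). Points are the ratio of 1 library to 1 library, bars are exact 95% counting intervals, the solid line is equality and the dashed lines are 2-fold. Eomes at 0.171 and Neurog2 at 0.405 lie left of the lower dashed line, and the other 6 lie between 0.780 and 1.19.

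The order of levels among the 9 genes was the same in both libraries. It ran from Fabp7 through Neurod2, Neurod6, Neurod1, Emx2, Pax6, Neurog2 and Eomes to Neurog1. Neighbours in this order were apart beyond their Poisson intervals, except that Neurod2 and Neurod6 overlapped in siNC. In order of ratio from the lowest, the genes ran Eomes, Neurog2, Fabp7, Pax6, Neurod1, Emx2, Neurod6 and Neurod2. Counting intervals of the quotient included 1 for the neighbours Fabp7 and Pax6, Emx2 and Neurod6, and Neurod6 and Neurod2. They lay below 1 for the other 4 pairs.

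Set against each other within a library, the steps of the sequence changed in different ways. These pairs were chosen after the values were seen. The FPKM ratio of Neurog2 to Pax6 was 0.361 in siYthdf3 and 0.722 in siNC, a quotient of 0.50 (interval 0.395 to 0.631). That of Eomes to Pax6 was 0.0353 in siYthdf3 and 0.167 in siNC, a quotient of 0.212 (interval 0.144 to 0.304). Downstream, Neurod1 was 8.83-fold the level of Neurog2 in siYthdf3 and 3.4-fold in siNC. It was 90.3-fold the level of Eomes in siYthdf3 and 14.7-fold in siNC. Tbr1, the T-box gene of early postmitotic glutamatergic neurons that follows Eomes, was at 15.6 FPKM in siYthdf3, against 14.9 FPKM in siNC. Its ratio of 1.05 had an interval that includes 1 (0.964 to 1.14). The Tbr1 level was 21.0-fold that of Eomes in siYthdf3 and 3.44-fold in siNC. Neurod6 was 1.70-fold the level of Neurod1 in siYthdf3 and 1.55-fold in siNC, a quotient of 1.10 (interval 1.03 to 1.17).

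Among the 5 bHLH members, Neurog2 made up 2.45% of the summed 310.0 FPKM in siYthdf3 and 6.62% of the summed 284 FPKM in siNC. The Neurod genes together held 97.5% in siYthdf3 and 93.4% in siNC. The proneural part of the family was therefore small in both libraries and smaller in siYthdf3.

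Genes of cell division were lower in the same library. All 30 measured genes of that list had a log2 ratio below 0, with a median of -0.86. An interval below 1 was found for 29 of them, against 22.2% of all genes. At least 2-fold lower were 8, namely Mcm3 at -1.62, Cdk2 at -1.42, Top2a at -1.15, Ccnb1 and Aurka at -1.08, Tpx2 and Cdc20 at -1.06 and Ccnb2 at -1.05. The 5 markers of dividing cells all had intervals below 1, with none listed at 0. The ratio of Neurog2 to Mki67, a gene of cycling cells chosen after its value was seen, was 0.260 in siYthdf3 and 0.334 in siNC, a quotient of 0.780 (interval 0.625 to 0.971). Against Top2a the quotient for Neurog2 was 0.906, with an interval that includes 1 (0.726 to 1.13). Eomes was lower than either, with a quotient of 0.330 against Mki67 (interval 0.227 to 0.471) and 0.384 against Top2a (interval 0.264 to 0.547). The part of a lower share of dividing cells in the Neurog2 and Eomes values was not tested.

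**Figure D3:**
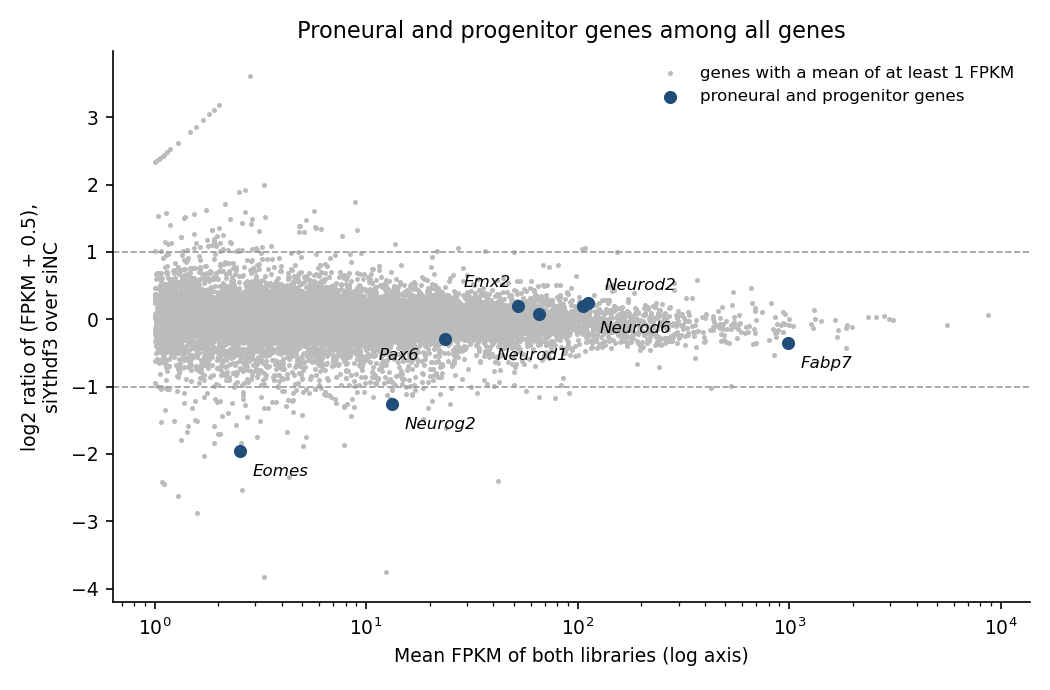
Log2 ratio of FPKM + 0.5, siYthdf3 over siNC, against the mean FPKM of both libraries on a log axis. Grey points are the 13172 genes averaging 1 FPKM or more, blue points the 8 described genes that pass this filter, and dashed lines mark 2-fold. Eomes at -1.96 and Neurog2 at -1.25 lie below the lower line, and Fabp7 at -0.36 is among the most abundant genes.

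Other genes of progenitors and radial glia went in both directions. Over 29 measured genes of 30, the median log2 ratio was -0.04. Intervals lay below 1 for 11, against 22.2% of all genes, and above 1 for 6, against 20%. The median was 0.005 after rescaling to TPM, which gives each library the same sum of length-scaled values, so no direction is given for the list. Only Tfap2c, a transcription factor of progenitors, was at least 2-fold lower, at 0.737 FPKM in siYthdf3, against 2.38 FPKM in siNC, for a log2 ratio of -1.22. Tfap2c passed the filter only through its siNC level, and it was not 2-fold lower with a pseudocount of 1 FPKM. Vim followed at -0.99, the intermediate filament gene Nes at -0.87 and the growth factor receptor gene Fgfr3 at -0.63. In the other direction, Fam107a was highest of the list at 0.62, for a ratio of 1.58 (interval 1.40 to 1.78). Sox2, a core factor of neural progenitors, was at 71.7 FPKM in siYthdf3, against 80.0 FPKM in siNC, for a ratio of 0.897 (interval 0.854 to 0.942). Pax6 was lower relative to Sox2 by a quotient of 0.903 (interval 0.820 to 0.995). Fabp7 was lower relative to Sox2 by a quotient of 0.870 (interval 0.825 to 0.917). Hopx, Slc1a3 and Hes1 had intervals that include 1. Fam107a, Sox2, Hopx, Slc1a3 and Hes1 were chosen after their values were seen.

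Other measured genes of intermediate progenitors did not share the size of the Eomes difference. Of 18 genes, 14 were measured, 0 were at least 2-fold apart, and the median log2 ratio was 0.003, or 0.05 after rescaling to TPM. Intervals lay below 1 for 2 measured genes and above 1 for 3, against 22.2% and 20% of all genes. Below the filter, Ppp1r17 was at 0.357 FPKM in siYthdf3, from 14 reads, and 0.861 FPKM in siNC, from 23 reads. Its FPKM ratio was 0.415, with an interval below 1 (0.197 to 0.841). The others below the filter, Neurod4, Nhlh1 and Tmem158, had FPKM ratios of 0.662, 0.654 and 1.36, with intervals that include 1. These genes and Sema3c were chosen after their values were seen. Insm1, a zinc finger factor that promotes the formation of intermediate progenitors, was at 4.51 FPKM in siYthdf3, against 7.13 FPKM in siNC, for a log2 ratio of -0.61. Rcor2, a corepressor, was at -0.40. The Notch ligand gene Dll3 was at -0.29 and the transcriptional cofactor gene Eya2 at -0.25, and both intervals include 1. Relative to Insm1, Eomes was lower by a quotient of 0.271 (interval 0.181 to 0.399) and Neurog2 by 0.640 (interval 0.490 to 0.834).

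Genes described as targets of the proneural factors, mostly in mice and frogs, formed a list of 35, of which 32 were measured. Their median log2 ratio was 0.07, against -0.01 over all genes, with 0 genes at least 2-fold apart. Intervals lay below 1 for 3 genes (9.38%, against 22.2% of all genes) and above 1 for 13 (40.6%, against 20% of all genes). Several genes of this list, Insm1 among them, also stand in the intermediate progenitor list or in that of neuronal differentiation factors. Hes5, Hes6, Bhlhe22 and Cbfa2t2 are also in the list of bHLH partners and inhibitors, and Dcx and Tubb3 among the pan-neuronal markers. The part of the neuronal share in the values of the target list was not tested. The lists that share genes are therefore not separate observations. Insm1 and Rnd2, a small GTPase gene that controls the migration of new neurons, were lowest of those measured at -0.61 and -0.39. Srrm4, a neuronal splicing regulator, was at 0.30 and Dll3 at -0.29. The 3 genes of this list below the filter, chosen after their values were seen, were the bHLH genes Neurod4 and Nhlh1 and the transcription factor gene Ebf3. Neurod4 was at 0.453 FPKM in siYthdf3, against 0.684 FPKM in siNC, and Nhlh1 at 0.377 FPKM in siYthdf3, against 0.577 FPKM in siNC, with intervals that include 1. Ebf3 had 15 reads in siYthdf3 and 27 in siNC, for an FPKM ratio of 0.379 with an interval below 1 (0.187 to 0.737).

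**Figure D4:**
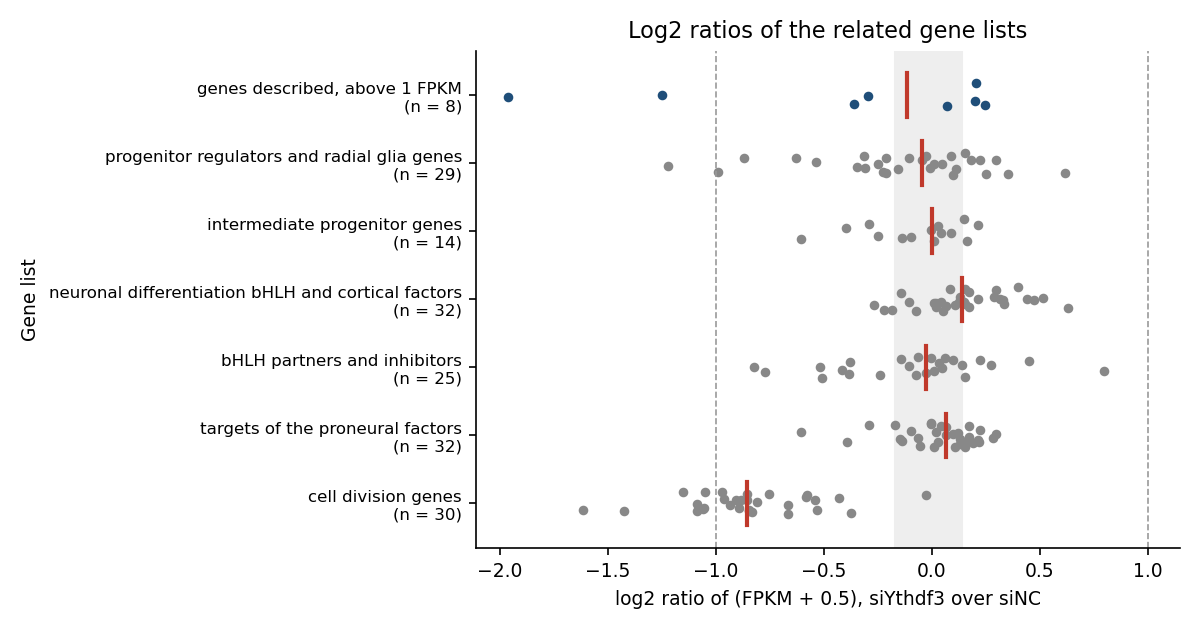
Log2 ratio of FPKM + 0.5, siYthdf3 over siNC, for the measured genes of each list. Each point is a gene, red bars are list medians, the grey band spans the quartiles of all genes (-0.17 to 0.14) and dashed lines mark 2-fold. The cell division list is centred at -0.86, the other lists lie near 0, and no gene of any list reaches the -1.96 of Eomes.

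Partners and inhibitors of bHLH factors were mixed, with a median log2 ratio of -0.02 over 25 measured genes (0.02 after rescaling to TPM). Intervals lay below 1 for 8 and above 1 for 6, against 22.2% and 20% of all genes. Olig2 and Olig1, bHLH genes of the oligodendrocyte lineage, were at -0.82 and -0.77. Hey1, a Notch effector that represses proneural genes, was at 14.8 FPKM in siYthdf3, against 8.31 FPKM in siNC, for a log2 ratio of 0.80. Tcf3, which encodes an E protein partner, was at -0.52. The other E protein genes Tcf4 and Tcf12 were at 0.03 and 0.14. The Id inhibitors did not share a direction. Id1 and Id3 were at -0.38 and -0.41, Id2 was at 0.05 with an interval that includes 1, and Id4 was at 0.22. Tcf4, Tcf12 and the Id genes were chosen after their values were seen.

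Measured transcription factors of neuronal differentiation were higher on balance, as Neurod1, Neurod2 and Neurod6 were. Over 32 measured genes of 35 the median log2 ratio was 0.14, with 18 intervals above 1, 1 below and 0 genes at least 2-fold apart. Over all genes, 20% of intervals lay above 1 and 22.2% below. The genes of this list below the filter, the bHLH genes Neurod4, Nhlh1 and Nhlh2, went the other way. Their FPKM ratios were 0.662, 0.654 and 0.661. The interval of Nhlh2 lay below 1 (0.461 to 0.946), and those of Neurod4 and Nhlh1 include 1. These bHLH genes were chosen after their values were seen. The largest values were those of the zinc finger gene Zbtb20 at 0.63, the layer 4 gene Rorb at 0.52, Myt1l at 0.47 and Mef2c at 0.44. Myt1l, which represses non-neuronal genes, was at 161 FPKM in siYthdf3, against 116 FPKM in siNC. In the same library the median was 0.22 for pan-neuronal markers, 0.19 for excitatory and 0.09 for inhibitory neuron markers. Intervals lay above 1 for 5 of 7, 3 of 6 and 3 of 6 of them, against the same 20% of all genes. The part of the neuronal share in the Neurod values was not tested.

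Across the 6 lists, 136 of 151 distinct genes were measured. None had a lower log2 ratio than Eomes, and 2 had a lower one than Neurog2, Mcm3 and Cdk2, both of cell division. Marker lists of other cells gave a median log2 ratio of -0.04 over 7 radial glia genes, -0.11 over 6 astrocyte genes with Gfap at 1.04, and -0.35 over 5 of 6 oligodendrocyte lineage genes. The microglia list gave -0.72 over 3 of 6 genes, with Tyrobp at -1.71 on 8 reads in siYthdf3 and 27 in siNC, Aif1 at -0.72 and P2ry12 at 0.36, and the pericyte, fibroblast and meningeal list -0.59 over 3 of 6. Summed FPKM of the oligodendrocyte lineage markers was 16.3 in siYthdf3 and 27.3 in siNC. That of the microglia markers was 3.58 in siYthdf3 and 7.45 in siNC, and that of the pericyte list 3.88 in siYthdf3 and 5.88 in siNC. The microglia marker Cx3cr1 and the fibroblast marker Lum were each listed at 0 in a library. The part of these cells in the Pax6, Fabp7 and Emx2 values was not tested.

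By position, the 9 genes lie on 8 chromosomes in the deposited table, and no other row overlaps any of them. Within 100 kilobases there were 27 other rows, 19 of them measured, with log2 ratios between -0.52 and 0.45 and a median of 0.06. None was at least 2-fold apart. Around Neurog2, the nearer rows Zgrf1 and Alpk1, at 18.6 and 34.7 kilobases, had intervals that include 1. Larp7, which encodes a protein of the 7SK ribonucleoprotein, lay 80.5 kilobases away. It was at 56.5 FPKM in siYthdf3, against 70.6 FPKM in siNC, for a log2 ratio of -0.32. The 4 rows within that distance of Eomes had log2 ratios between 0.13 and 0.45. The low values of Neurog2 and Eomes were thus not shared at that size by the rows around them.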

How the data were processed

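Messenger RNA of cortical neurons from E18 rat embryos was sequenced in 1 siYthdf3 and 1 siNC library, as the titles group them. The labels' protocols state that cDNA molecules carried unique molecular identifiers. The submitters' processing notes name, with no roles, StringTie 2.1.4, Subread 1.5.1, featureCounts, STAR 2.7.6a, fastp 0.23.2 and edgeR 3.40.2. How identifiers were collapsed, the strand setting, the build and the annotation: not given in the sources used here. Overlapping and antisense transcripts can therefore not be told apart.

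The authors deposited FPKM values per gene, per the file headers. Multiplied by gene length, 100% of values in a library came within 0.05 of whole multiples of the value of 1 read, which gave back the reads. A count of 0 allows 3 reads. Log2 ratios used a pseudocount of 0.5 FPKM, and genes averaging 1 FPKM or more (called measured in the report) were compared by a rule of size of 2-fold. Ratio intervals are Clopper-Pearson intervals of the share of reads, quotient intervals are exact conditional odds ratio intervals, and both cover counting error only. The members, the 6 related lists and 10 marker lists were chosen with earlier results of these data known, and no member stands in a list. Named genes are the 9 members, Ythdf3, up to 4 genes with the largest log2 ratio per list, genes past 2-fold and rows near a member. The text marks any other gene as picked with its value in view. A pattern over 2 libraries is 1 ratio, so no genes were named for likeness. Promoter stretches are from RefSeq (GRCr8), and none of its coordinates were set against those of the deposited table. The calculation was tested on simulated data. Software was scipy 1.17.1, numpy 2.4.6, matplotlib 3.10.9, statsmodels 0.14.6 and pandas 2.3.3 under Python 3.11.15.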

Additional observations from a re-analysis of the deposited data

How the results depend on the processing

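No paired analysis was possible because each group has 1 library, and for the same reason no replicate could be left out. Of 11 alternatives, those that give a value for a member kept its direction for all 8 members. Neurog2 lay between -1.29 and -1.14 in 10 alternatives and Eomes between -2.40 and -1.61 in 9, past 2-fold in each. Some of these could not move a member's value. A changed filter leaves it as it is, and so does summing the rows of a symbol, since each member stood on 1 row. At a mean of at least 5 FPKM, Eomes drops out by construction, so 1 member was 2-fold lower, and the median log2 ratio of the members was 0.072. The same filter left 51 genes 2-fold lower and 16 higher, no filter gave 231 and 249, the 1.5-fold rule 520 and 317, and a pseudocount of 1 FPKM left 55 higher. Fabp7 was at -0.31 after rescaling to TPM and -0.27 after removal of a length trend. The one progenitor gene 2-fold lower was lost, leaving 0, with a pseudocount of 1 FPKM and at a mean of at least 5 FPKM. At 1.5-fold, the progenitor list had 4 lower and 1 higher, the intermediate progenitor list 1 lower, the differentiation list 1 higher, the bHLH partner list 2 lower and 1 higher, the target list 1 lower and the cell division list 23 lower. Depth limits Neurog1 and widens the Eomes interval, which rests on 40 reads in siYthdf3.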
